A study of Saccharomyces cerevisiae with 3 samples.

Results

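The transcripts of the 3 G1 cyclins of budding yeast (CLN1, CLN2 and CLN3), its 6 B-type cyclins (CLB1 to CLB6) and the inhibitor SIC1 were measured in replicatively ageing cells. These 10 genes were taken by their gene symbol from the 5792 yeast gene features of each array, a rule that uses no measured value. All 10 had 1 spot per array, and all gave signal above the blank spots in both channels of all 3 arrays. Such signal does not by itself show transcript, since genes specific to the mating type this strain lacks also gave it, as described below.

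Cyclins are the regulatory subunits that switch on the cyclin-dependent kinase Cdc28, and each is made in its own window of the cell cycle. Cln3 acts early in G1 and sets off the transcription factors SBF and MBF. These drive CLN1 and CLN2 for budding and CLB5 and CLB6 for DNA replication, then CLB3 and CLB4 act from S phase on, and CLB1 and CLB2 drive mitosis. Sic1 binds and blocks the B-type cyclin kinases in G1 until its destruction lets S phase begin. The level of each transcript in a population therefore moves with the share of cells in each phase and with the division rate.

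All groups share 1 haploid strain, BY4742, which carries mating type alpha. Cells were labelled with biotin and grown in rich YPD medium at 30 °C, and the older cells were recovered with biotin-binding magnetic beads. RNA of 4th, 7th and 11th generation cells was hybridised in the Cy3 channel of a two-colour oligonucleotide array, 1 array for each, against 1st generation cells in the Cy5 channel of the same array. How the 1st generation cells were obtained, whether 1 preparation of their RNA served all arrays, and how pure the older cells were is not stated. Nothing else separates the groups in the labels, and the early generations measured lie well before the end of a typical lifespan of this species.

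With 1 array per generation, no replicate array and no dye swap, no test was run, values carry no error, and precision is limited by the number of arrays. A pooled test over the 3 arrays was not run either. In a value against the 1st generation, dye and generation cannot be told apart for any probe, but most of a dye effect drops out of a difference between arrays. Values are log2 ratios of older over 1st generation signal after background correction and loess normalization within each print block. The raw signals of the 2 channels are on different scales, with medians of 523, 496 and 591 in Cy3 and 177, 161 and 162 in Cy5 on the 3 arrays, so a raw Cy3 value above a raw Cy5 value does not mean more transcript.

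Across the 10 genes, CLB1 stood highest and CLN2 lowest against the 1st generation on every array, and most of the others lay within 1.5-fold of the 1st generation at the 4th and 7th generation. At the 4th generation 1 of 10 was at least 2-fold higher, CLB1, where 2.17% of 5659 features with signal were. Also at the 4th generation 1 of 10 was at least 2-fold lower, CLN2, against 2.49% of features. At the 7th generation CLB1 was again the 1 member at least 2-fold higher, against 2.32% of 5567 features, and 0 of 10 were at least 2-fold lower, against 2.03%. At the 11th generation CLB1 was at least 2-fold higher and CLN2 at least 2-fold lower, against 5.75% and 3.84% of 5703 features. The median log2 ratio of the members was 0.24, -0.06 and -0.44 at the 4th, 7th and 11th generation, beside medians over all features of 0.01, 0.01 and 0.03. At the 11th generation 8 of the 10 lay below 0, against 47.6% of features, all but CLB1 and CLB5. At the 4th generation 3 lay below 0, CLN2, CLB3 and CLB4, against 48.3%, and at the 7th 5 did, against 48.9%.

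A lower threshold of 1.5-fold took in more members, most of them among the lower values of the 11th generation. At the 4th generation CLN3, CLB1 and CLB2 were at least 1.5-fold higher, against 8.94% of features, and CLN2 was lower, against 8.96%. At the 7th CLB1 was higher, against 9.5%, and CLN2 lower, against 8.96%. At the 11th CLB1 was higher, against 14.4%, and 5 members were lower, CLN1, CLN2, CLB3, CLB4 and CLB6, against 12.5%.

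**Figure D1:**
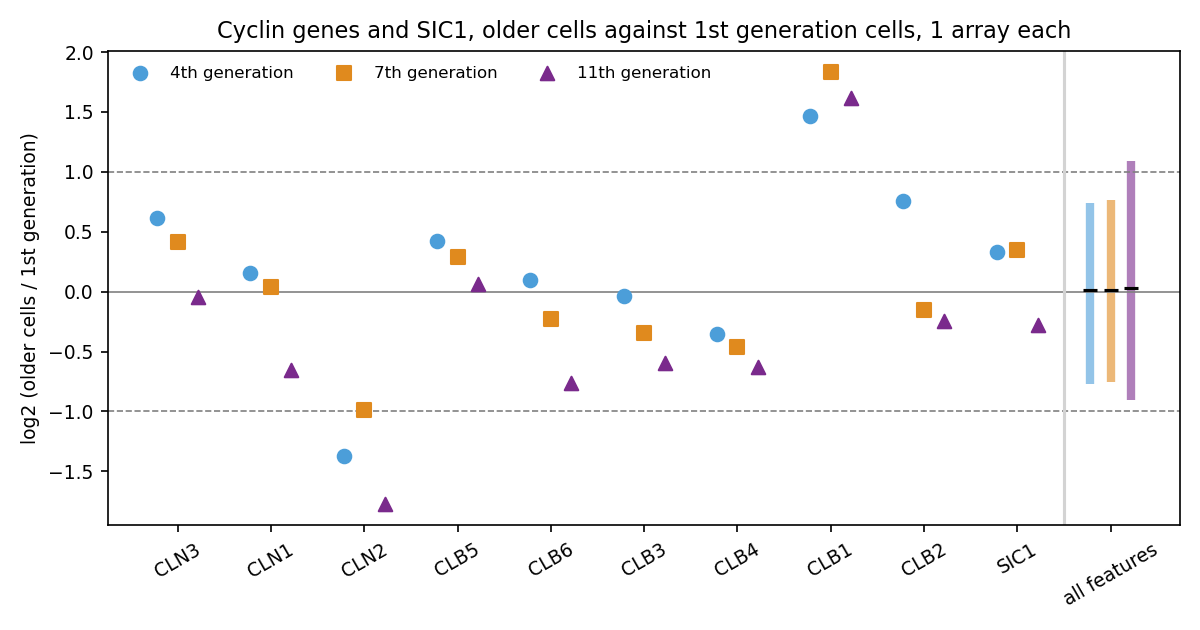
Log2 ratio of older over 1st generation signal (vertical axis) for each of the 10 genes, with 1 point per array for the 4th (circle), 7th (square) and 11th (triangle) generation, and bars for the 5th to 95th percentile of all features with a tick at their median. Dashed lines mark 2-fold. CLB1 lies between 1.47 and 1.83 and CLN2 between -1.77 and -0.99, outside the bars on every array, while the 11th generation point is the lowest of the 3 for every gene but CLB1.

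CLN3 encodes the G1 cyclin that acts first in the cycle. Its raw Cy3 signal was 1657, 1344 and 1030 in 4th, 7th and 11th generation cells, against raw Cy5 signals of 433, 393 and 381 in 1st generation cells. The 1st generation signal was close on all 3 arrays, differing by 1.07-fold after normalization, while the older cells' signal was highest at the 4th generation and lowest at the 11th. The log2 ratio of CLN3 (YAL040C) was 0.61, 0.41 and -0.04 at the 4th, 7th and 11th generation. CLN3 was thus 1.53-fold higher at the 4th generation and 1.03-fold lower at the 11th. These sizes depend on the setting. Loess over the whole array gave 0.50, 0.27 and -0.28, and median centring 0.74, 0.53 and -0.02. In the authors' deposited table they were 0.43, 0.19 and -0.42.

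CLN1 and CLN2 encode a pair of closely related G1 cyclins that start budding and the destruction of Sic1. They did not share a level relative to the 1st generation. CLN2 (YPL256C) gave raw Cy3 signals of 601, 579 and 460 in 4th, 7th and 11th generation cells, against raw Cy5 signals of 633, 459.5 and 523 in 1st generation cells. After normalization it was lower in older cells on every array. For CLN2 the log2 ratio was -1.37, -0.99 and -1.77, that is 2.58-fold, 1.98-fold and 3.41-fold lower. These ratios stood at percentile 0.972, 2.10 and 0.631 of all features on their array.

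CLN1 (YMR199W) gave raw Cy3 signals of 373, 401 and 317 in 4th, 7th and 11th generation cells, against raw Cy5 signals of 140.2, 140.4 and 171 in 1st generation cells. Its log2 ratio was 0.15, 0.04 and -0.66, and at the 11th generation, the farthest from 0, CLN1 was 1.58-fold lower. The 2 small values above 0 turned to -0.11 and -0.09 with loess over the whole array and to -0.03 and -0.02 in the authors' deposited table. Set against each other, the log2 ratio of CLN1 exceeded that of CLN2 by 1.52, 1.03 and 1.11 at the 4th, 7th and 11th generation. Since the probes differ, this compares ratios and not levels.

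CLB5 and CLB6 encode the S phase cyclins that fire replication origins. CLB5 (YPR120C) gave raw Cy3 signals of 750, 692 and 600 in 4th, 7th and 11th generation cells, against raw Cy5 signals of 156, 143 and 126 in 1st generation cells. Its log2 ratio was 0.42, 0.29 and 0.06, and both channels were dimmest on the 11th generation array. Other settings put CLB5 higher, at 0.94, 0.87 and 0.61 after median centring and 0.67, 0.61 and 0.36 with loess over the whole array. The authors' deposited table gives 0.89, 0.80 and 0.57. CLB6 (YGR109C) gave raw signals nearer to the blank spots, with raw Cy3 signals of 214, 181 and 118 in 4th, 7th and 11th generation cells, against raw Cy5 signals of 61.7, 65.0 and 66.7 in 1st generation cells. Here the 1st generation signal was level over the arrays and the older cells' signal was lowest at the 11th generation.

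For CLB6 the log2 ratio was 0.10, -0.23 and -0.76, so it was 1.70-fold lower at the 11th generation. The value of CLB6 depended on the background correction. The 11th generation log2 ratio was -1.85 when the blank signal was plainly subtracted, and in the authors' deposited table the values were 0.71, 0.08 and -1.07. That of CLB5 exceeded that of CLB6 by 0.33, 0.51 and 0.82 over the 3 generations.

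CLB3 and CLB4 encode B-type cyclins of S phase and the early spindle. CLB3 (YDL155W) gave raw Cy3 signals of 787, 758 and 727 in 4th, 7th and 11th generation cells, against raw Cy5 signals of 340, 363 and 407 in 1st generation cells. For CLB3 it was the 1st generation signal that was highest on the 11th generation array, and the older cells' signal differed by 1.17-fold after normalization. This gave CLB3 log2 ratios of -0.04, -0.34 and -0.60. CLB4 (YLR210W) gave raw Cy3 signals of 336, 279 and 255 in 4th, 7th and 11th generation cells, against raw Cy5 signals of 127, 112 and 104 in 1st generation cells. Log2 ratios of CLB4 were -0.36, -0.46 and -0.63.

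CLB3 and CLB4 thus lay below 0 on all 3 arrays, as CLN2 did, and neither reached 2-fold with loess within blocks. In the authors' deposited table CLB3 passed 2-fold at the 11th generation, at -1.06. At the 4th generation the direction of both was not settled, since median centring in place of loess put CLB4 at 0.05 and CLB3 at 0. Of all features, 34.7% were below 0 on all 3 arrays, so 3 of 10 is near the background. The difference between the ratios of CLB3 and CLB4, 0.32, 0.12 and 0.03, changed sign with loess over the whole array.

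CLB1 and CLB2 encode the mitotic cyclins, and CLB2 is the main one in dividing cells. CLB1 (YGR108W) gave raw Cy3 signals of 3067, 3376 and 3408 in 4th, 7th and 11th generation cells, against raw Cy5 signals of 324, 285 and 269 in 1st generation cells. The 2 sets were far apart on all arrays, and the 1st generation signal differed by 1.06-fold after normalization. In log2 ratios CLB1 stood at 1.47, 1.83 and 1.62, that is 2.77-fold, 3.56-fold and 3.07-fold higher. These stood at percentile 99.3, 99.7 and 97.98 of all features, and with loess over the whole array they were 1.80, 2.06 and 1.98.

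CLB2 (YPR119W) gave raw Cy3 signals of 1826, 457 and 673 in 4th, 7th and 11th generation cells, against raw Cy5 signals of 257, 117 and 169 in 1st generation cells. Both channels of CLB2 were high on the 4th generation array and low on the 7th. After normalization its signal in older cells differed by 3.51-fold over the arrays, and that in 1st generation cells by 1.86-fold, at percentile 96.7 of all features, whose median was 1.11-fold. The part of this unequal 1st generation signal in the values of CLB2 was not tested. Log2 ratios of CLB2 were 0.76, -0.16 and -0.24 at the 4th, 7th and 11th generation, and the small values below 0 have no settled direction. At the 4th generation CLB2 passed 2-fold in other settings, at 1.58 after median centring, 1.31 with loess over the whole array and, per the authors' deposited table, 1.39. The 7th and 11th generation values were 0.30 and 0.16 with loess over the whole array and 0.52 and 0.43 after median centring. The authors' deposited table gives 0.51 and 0.24.

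The log2 ratio of CLB1 exceeded that of CLB2 by 0.71, 1.99 and 1.86 over the 3 generations. With loess over the whole array the same differences were 0.49, 1.76 and 1.82. Along the chromosomes CLB1 is the neighbour of CLB6 and CLB2 that of CLB5, per the gene table, so each neighbouring pair joins a mitotic cyclin to an S phase cyclin. CLB1 and CLB6 lay apart, at 1.62 and -0.76 at the 11th generation, while CLB2 and CLB5 were both lower at each later generation.

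SIC1 (YLR079W) encodes the inhibitor of the B-type cyclin kinases. It gave raw Cy3 signals of 2655, 2360 and 1792 in 4th, 7th and 11th generation cells, against raw Cy5 signals of 1053, 911 and 949 in 1st generation cells. The 1st generation signal differed by 1.06-fold after normalization, the least of the 10 genes, and the older cells' signal was lowest at the 11th generation. SIC1 had log2 ratios of 0.33, 0.35 and -0.28. In the authors' deposited table all 3 lay below 0, at -0.21, -0.24 and -0.97, so that only the lower place of the 11th generation relative to the earlier ones holds under both.

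**Figure D2:**
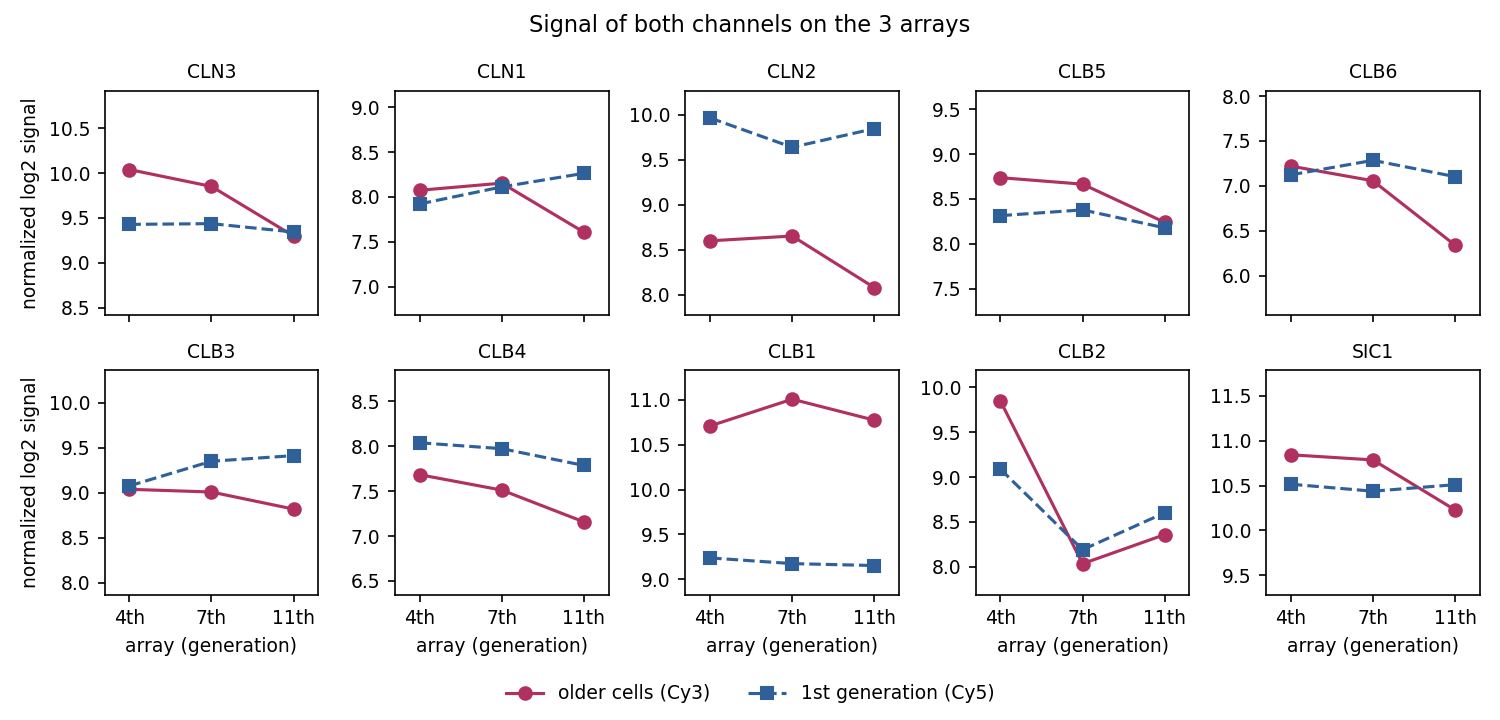
Normalized log2 signal (vertical axis, each panel spanning the same range of units) of older cells (solid, Cy3) and 1st generation cells (dashed, Cy5), with the 3 arrays in order of generation, 1 panel per gene and 1 point per array. CLB1 keeps a wide gap on all arrays, CLN2 lies below its 1st generation signal throughout, and for CLB2 both lines are lowest on the 7th generation array. Signals after quantile normalization of the channels' averages are in arbitrary units, and levels of different genes are not comparable.

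The generations were then compared with each other by subtracting log2 ratios, which removes much of a probe's dye effect. Between the 7th and 4th generation the differences were small for most features, with 5% of them below -0.22. For 7 of the 10 genes the 7th generation was lower than the 4th, against 49% of 5550 features, and the median difference was -0.12 against 0.00 over all features. CLB2 differed most, at -0.92, and CLN2 and CLB1 ran the other way at 0.38 and 0.36. Differences of 2-fold or more numbered 0 of 10 in either direction, against 0.162% of features higher and 0.0901% lower. At 1.5-fold CLB2 was lower, against 0.414% of features, and 0 of 10 were higher, against 0.757%.

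In the 11th generation, against the 4th, 9 of the 10 genes were lower, where 48.5% of 5645 features were. The differences were -1.002 for CLB2, -0.86 for CLB6, -0.81 for CLN1, -0.66 for CLN3, -0.61 for SIC1 and -0.56 for CLB3. Those of CLN2, CLB5 and CLB4 were -0.40, -0.36 and -0.27, and CLB1 alone lay above 0, at 0.15. The member median was -0.58 and that of all features 0.01. CLB2 was the 1 member past 2-fold, at 2.003-fold lower, against 0.903% of features, while 0 were at least 2-fold higher, against 2.66%. At 1.5-fold, 5 of 10 were lower, CLN1, CLN3, CLB2, CLB6 and SIC1, against 5.16% of features, and 0 were higher, against 8.75%.

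In the 11th generation, against the 7th, all 10 lay below 0, where 49.6% of 5556 features did. Their differences ran between -0.78 for CLN2 and -0.09 for CLB2, with a median of -0.36 against 0.00 over all features. CLN1 at -0.70 and SIC1 at -0.63 were also at least 1.5-fold lower, so 3 of 10, against 3.49% of features, and 0 were higher, against 6.55%. Past 2-fold were 0 of 10 in either direction, against 1.93% of features higher and 0.558% lower.

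The counts below 0 were 7, 9 and 10 of 10 also with loess over the whole array, median centring, no background correction, plain subtraction and in the authors' deposited table. Without CLB2 they were 6, 8 and 9 of 9. The share of all features below 0 is given for loess within blocks only, so the counts of the other settings have no background beside them. The 7 between the 7th and 4th generation were not the same genes in every setting. CLN1 rose above 0 with loess over the whole array, median centring and in the authors' deposited table. SIC1 took its place there, at -0.0055, -0.00022 and -0.031, so the count held through values close to 0. From the older cells' normalized signal alone, without the 1st generation channel, 9 of 10 were below 0 in the 11th generation against the 7th, CLB2 being the exception at 0.32. The members' count is a description of 10 genes regulated in the same cycle, and 9 of 10 having the 11th generation value lowest of the 3 compares with 43.3% of 5546 features. A value lower at each later generation was found for 7 members, CLN1, CLN3, CLB2, CLB3, CLB4, CLB5 and CLB6, against 27.1% of features. Of these CLN1 depends on the setting, since its difference between the 7th and 4th generation, -0.11, was 0.02 with loess over the whole array and 0.05 after median centring. In the authors' deposited table it was 0.01.

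**Figure D3:**
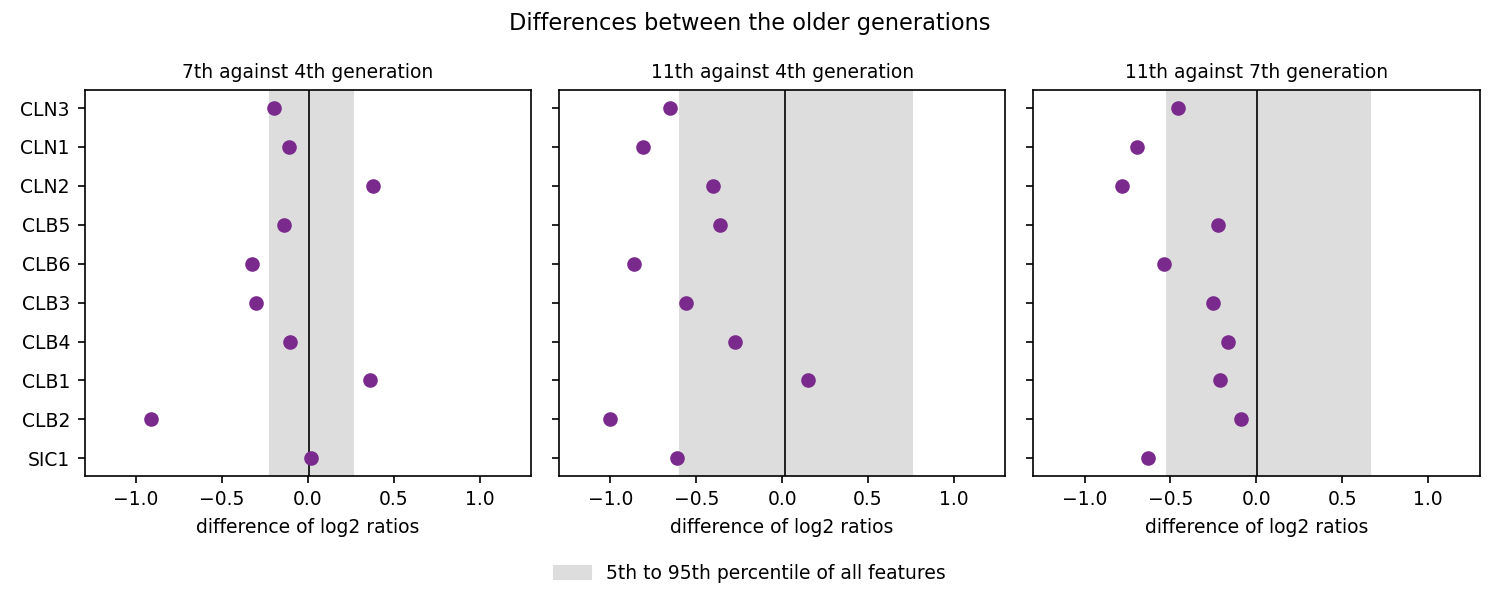
Difference of log2 ratios (horizontal axis) for the 7th against the 4th, the 11th against the 4th and the 11th against the 7th generation, 1 point per gene, with the 5th to 95th percentile of all features shaded and their median as a line. In the middle panel 9 of 10 points lie left of 0 and CLB1 lies at 0.15. In the right panel all 10 lie left of 0.

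The normalized signals of the single channels differed between arrays in ways that varied from gene to gene. With 1 spot per gene on each array, a spot effect on both channels cannot be told apart from a difference in either sample. Which sample underlies a lower value was thus not tested. In the normalized signal of older cells, CLN3, CLB6 and SIC1 were lower in the 11th than in the 4th generation by 0.74, 0.88 and 0.61 on the log2 scale in size, while their 1st generation signals on the same arrays differed by 0.09, 0.02 and 0.01 in size. For CLN1 the older cells' signal differed by -0.47 and the 1st generation signal by 0.34. For CLB3 the 1st generation signal differed more, by 0.34, than that of the older cells, by -0.22. CLB2 differed by -1.49 in older cells and by -0.49 in 1st generation cells, so both channels of CLB2 were lower on the 11th generation array. CLB4, CLB5 and CLN2 likewise differed by -0.53, -0.50 and -0.52 in older cells. In 1st generation cells they differed by -0.25, -0.14 and -0.12.

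Genes acting on the cyclins were set beside them. Among 11 regulators of the G1 to S step, 0 were at least 2-fold higher or lower at the 4th and 7th generation, and 2 were at least 2-fold lower at the 11th, FAR1 and MSA2, where 3.84% of all features were. At the 4th and 7th generation 2.17% and 2.32% of features were at least 2-fold higher, and 2.49% and 2.03% lower. The median log2 ratio of these regulators was -0.12, -0.11 and -0.43 at the 4th, 7th and 11th generation, and median centring put the first at 0.08. FAR1, the inhibitor of Cln kinases in the pheromone response, had log2 ratios of -0.46, -0.67 and -1.34. MSA2 and MSA1, which encode partners of SBF and MBF, had -0.37, -0.78 and -1.17, and 0.32, 0.29 and -0.63. In the 11th generation, against the 7th, all 11 regulators were below 0, where 49.6% of features were.

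Of the Cdc28 kinase and the machinery of G1 to S protein turnover, 0 of 11 genes reached 2-fold on any array. At most 5.75% of all features were at least 2-fold higher on an array, and at most 3.84% lower, so 0 of 11 is near the background. The median log2 ratio of these 11 genes was 0.10, 0.12 and 0.27, but -0.14, -0.14 and -0.06 with loess over the whole array, so no direction can be given. CDC28 itself had log2 ratios of 0.13, 0.12 and 0.34. CDC34, the ubiquitin-conjugating enzyme that marks Sic1 for destruction, had 0.75, 0.79 and 0.78, and SKP1, a subunit of the same ubiquitin ligase, had 0.05, 0.08 and 0.57. SWE1, the kinase that restrains Clb2-bound Cdc28, had -0.07, -0.04 and -0.39.

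CLN1, CLN2, CLB5 and CLB6 are targets of SBF and MBF, and 20 other genes of that kind were at hand. None of the 20 was at least 2-fold higher on any array, where 2.17%, 2.32% and 5.75% of all features were. At least 2-fold lower at the 4th, 7th and 11th generation were 4, 2 and 7, against 2.49%, 2.03% and 3.84% of all features. POL1 and CDC21 made up the count at the 7th, joined by TOS6 and POL2 at the 4th. These names depend on the setting. With loess over the whole array POL1 was at -0.70 and -0.73 at the 4th and 7th generation. TOS6 and POL2 were then at -0.79 and -0.78 at the 4th, and PCL2 passed 2-fold at -1.11 and -1.21. The median log2 ratio of these targets was 0.10, 0.01 and -0.56, and the first pair of values changed sign with loess over the whole array, to -0.07 and -0.21. POL1, the catalytic subunit of DNA polymerase alpha, had log2 ratios of -1.27, -1.29 and -1.61, CDC21, thymidylate synthase, -1.46, -1.35 and -1.41, and PCL2, a cyclin of the kinase Pho85, -0.76, -0.81 and -1.38. In the 11th generation, against the 4th, 18 of the 20 were below 0, against 48.5% of features, with a median of -0.37. Of the 20, 1 was at least 2-fold lower in this comparison, against 0.903% of features, RNR1, the large subunit of ribonucleotide reductase, at -1.72.

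CLB1 and CLB2 belong to the mitotic genes known as the Clb2 cluster. Of 16 others of this cluster, 0 were at least 2-fold higher against the 1st generation on any array, where 2.17%, 2.32% and 5.75% of features were. At least 2-fold lower was 1, MOB1 at the 4th generation, where 2.49% of features were. The raw Cy5 signal of MOB1 in 1st generation cells was 641, 214 and 234 on the 3 arrays, so that value rests on a 1st generation signal that was itself unequal. The median log2 ratio of the 16 was 0.11, 0.04 and -0.31, the second of which was -0.05 with loess over the whole array. In the 11th generation, against the 4th, 13 of the 16 were below 0, against 48.5% of features, with a median of -0.36. NUD1, a scaffold of the spindle pole, had log2 ratios of -0.63, -0.50 and -0.77, SFG1 -0.40, -0.51 and -0.73, and BUD4, which marks the bud site, -0.30, -0.55 and -0.71. None of them stood where CLB1 did, and the highest of the 16 at the 11th generation was at 0.31.

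The transcription factors of the G2 to M step had median log2 ratios of -0.44, -0.37 and -0.70 over 5 genes, with 1, 0 and 1 at least 2-fold lower, FKH1 at the 4th generation, against 2.49% of features, and NDD1 at the 11th, against 3.84%. The size of these medians depended on the setting, since loess over the whole array gave -0.84, -0.79 and -1.05, and in the authors' deposited table the 7th generation median was -0.96. NDD1, the coactivator of CLB2 transcription, had -0.55, -0.50 and -1.23, and the forkhead factors FKH1 and FKH2 had -1.02, -0.83 and -0.98, and -0.44, -0.37 and -0.70. The anaphase-promoting complex, which destroys B-type cyclins, had 0 of 14 genes past 2-fold on any array and medians of 0.06, 0.08 and 0.14. Its subunits APC1, CDC27 and APC2 had -0.52, -0.46 and -0.94, then -0.23, -0.39 and -0.63, and 0.44, 0.47 and 0.43. The mitotic exit network, which brings SIC1 transcription back through Swi5, had 0 of 9 past 2-fold, 8 of them with signal at the 7th generation, and medians of -0.06, -0.18 and -0.45. On no array were more than 5.75% of all features at least 2-fold higher, or more than 3.84% lower. Counts of 0 of 14 and 0 of 9 are thus near the background. LTE1, an activator of the network, had -0.63, -0.62 and -0.89, NET1, which holds the phosphatase Cdc14 in the nucleolus, -0.27, -0.47 and -0.87, and AMN1, an inhibitor of the network in daughters, -0.33, -0.38 and -0.63.

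**Figure D4:**
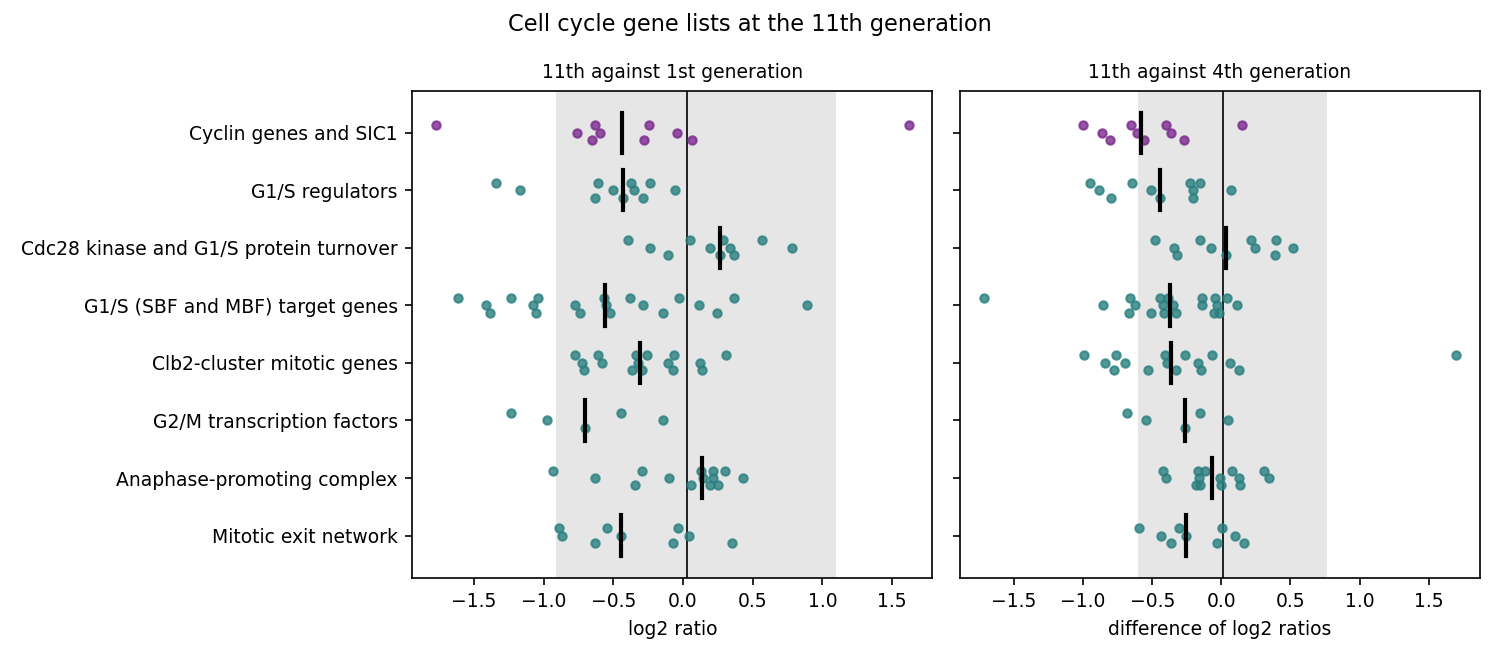
Log2 ratio at the 11th against the 1st generation (left) and difference of log2 ratios of the 11th against the 4th generation (right) for the 10 genes (top row) and 7 lists of related genes, 1 point per gene, with a bar at each list's median and the 5th to 95th percentile of all features shaded. The median of the 10 genes is -0.44 on the left and -0.58 on the right. On the left the transcription factors of the G2 to M step have the lowest median of these lists, -0.70, and on the right the 10 genes do.

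Daughter cells differ from mothers in their G1, and 8 genes that newborn daughters express (CTS1, EGT2, DSE1 to DSE4, SCW11 and AMN1) were used as their markers. All 8 had signal above the blank spots in both channels of all arrays. All 8 lay below 0 on each array, where 48.3%, 48.9% and 47.6% of features did at the 4th, 7th and 11th generation. Their median log2 ratios were -0.53, -0.40 and -1.08, and 1, 2 and 4 were at least 2-fold lower, against 2.49%, 2.03% and 3.84% of features. These were DSE4, then also EGT2, then also DSE2 and DSE3. With loess over the whole array the medians were -0.28, -0.23 and -0.86, and some markers lay above 0, CTS1 at 0.12 and 0.15 at the 4th and 7th generation, DSE2 at 0.18 at the 4th and SCW11 at 0.07 at the 7th. The glucanase DSE4 had log2 ratios of -1.56, -1.78 and -2.27, EGT2, of cell separation, -0.94, -1.11 and -2.26, and DSE3 -0.90, -0.99 and -1.49. The summed normalized signal of the 8 markers was 5920, 5456 and 2966 in older cells, against 9045, 9151 and 8865 in 1st generation cells. The part of daughter cells in the lower cyclin and SIC1 values was not tested, and in these bulk samples fewer cells of a type and less RNA per cell cannot be told apart.

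The labelled strain was set against mating type markers. The 4 alpha-specific genes had a median rank at percentile 81.3, 80.7 and 71.2 of all features in older cells and 92.5, 93.8 and 94.2 in 1st generation cells, and the 6 a-specific genes lay at 18.7, 16.6 and 19.7 in older cells and 23.8, 22.4 and 21.1 in 1st generation cells. The median log2 ratio of the alpha-specific genes was -0.74, -1.24 and -2.10, so these too were lower on the array where most cyclin genes were lowest. FAR1, which the same pheromone pathway induces, is named above. The part of the pheromone pathway in the cyclin values was not tested. The 6 a-specific genes also passed the blank limit in both channels, except AGA2 in older cells at the 7th generation. At the 4th generation their raw Cy3 signals ran from 71.4 to 310, and that of CLB6 was 214. Their raw Cy5 signals ran from 38.6 to 83.8, and that of CLB6 was 61.7. At the 11th generation the a-specific genes ran from 88.1 to 359 in raw Cy3 and from 38.3 to 77.2 in raw Cy5. CLB6 was then at 118 and 66.7, so its 11th generation value too rests on signal within their range. Passing the blank limit therefore does not by itself show CLB6 transcript.

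For the 3 members farthest from 0 at the 11th generation, the genes with the nearest set of 3 log2 ratios were sought among 5298 features, by Euclidean distance, over 3 arrays that may share 1 source of 1st generation RNA. Nearest to CLN2 were POL1 at a distance of 0.357, INA1 at 0.365 and TRA1, a subunit of histone acetyltransferase complexes, at 0.433. With loess over the whole array POL1 was at -0.70, -0.73 and -1.08, against -1.51, -1.16 and -1.86 for CLN2. The nearness of POL1 thus depends on the setting, and distances are given for loess within blocks only. Nearest to CLB1 were PHD1, a transcription factor of filamentous growth, at 0.205, the cell surface protease gene YPS1 at 0.271, and RNR4, a small subunit of ribonucleotide reductase, at 0.313. Nearest to CLB6 were RKM3 at 0.0971, YAL037W at 0.104 and UBC11, a ubiquitin-conjugating enzyme, at 0.126. CLN2 had no feature as near as CLB6 had. This says nothing of its pattern, since CLN2 stood at percentile 0.972, 2.10 and 0.631, where few features lie. No other member was among the 3 nearest of CLN2, CLB1 or CLB6.

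The place of a spot on the array bears on these values. After loess over the whole array, the median log2 ratio of even print blocks stood above that of odd ones by 0.45, 0.45 and 0.44, and after loess within blocks by 0.002, 0.004 and 0.011. CLN1, CLN2, CLN3, CLB3 and SIC1 lie in odd blocks, and CLB1, CLB2, CLB4, CLB5 and CLB6 in even ones. Between the 2 settings the members' log2 ratios moved by -0.32 to 0.55, and CLN2 was -1.51, -1.16 and -1.86 with loess over the whole array.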

How the data were processed

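Per the file headers, the deposited intensity of a spot is raw, with no background taken off in either channel, and a ratio of scaled signals with its log2 stands beside it. The deposited ratio is the authors' Cy3 over Cy5 and the deposited log2 values are the same in the series table, within 5e-08. Scanner software is not given in the sources used here, and 3 spots were emptied for this work.

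Raw intensities were corrected with normexp (offset 50) and normalized by loess within each of 16 print blocks of 392 spots (limma 3.58.1, R 4.3.3), giving control spots a weight of 0. Blocks were inferred from the repeat of blank spots in file order. Loess within blocks assumes that most features of a block do not differ between channels. Signals of single channels were made with Aquantile. A feature counted if raw signal lay above the blanks (mean plus 2 SD of 320 spots) in at least one channel, on both arrays for a difference. That limit was 56.6, 70.5 and 51.3 for Cy3, and for Cy5 it was 32.2, 26.4 and 29.6. Further steps used Python 3.11.15.

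Of 5792 features, 5730 matched the gene table by systematic name. The table gave names and neighbours only, since no genome build is named for the files. One planned gene list is not reported here. Promoter sequences were not used here, so the planned motif search was not run. Each of the 3 samples is 1 array and the groups come from its labels. The members, gene lists and markers were chosen with earlier results of these data known, among them the offset between print blocks. Named genes were all 10 members, from each gene list the 3 with the largest absolute log2 ratio at the 11th generation, and for the 3 members farthest from 0 there the 3 nearest features. CDC28, MOB1, RNR1, TOS6, POL2 and DSE2 were named after their values were seen. Alternatives were loess over the whole array, median centring, no background correction, plain subtraction (floor 5), the authors' deposited values, no filter on signal and a 1.5-fold threshold.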

Additional observations from a re-analysis of the deposited data

Results flagged for a closer look

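For 5 of the 10 genes the log2 ratio against the 1st generation lay above 0 on some arrays and below 0 on another, where 27.1% of all features had ratios of both signs. In all 5 the 4th generation lay above 0 and the 11th below it, as did 11.3% of features. The 11th minus 4th generation differences were -1.002 for CLB2, -0.86 for CLB6, -0.81 for CLN1, -0.66 for CLN3 and -0.61 for SIC1. These differences were not tested, since each generation was measured on 1 array. The crossing of 0 itself depends on the setting for CLN1, CLB2 and SIC1. Loess over the whole array puts CLN1 at -0.11 at the 4th generation and CLB2 at 0.16 at the 11th, and the authors' deposited value of SIC1 is -0.21 at the 4th.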

How the results depend on the processing

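Each result was recomputed with one choice altered at a time, and a single value counted as moved when it differed by more than 1.5-fold (0.585 on the log2 scale). No called value reversed. Members at least 2-fold higher or lower numbered 2 at the 4th generation against the 1st, and 4 at a 1.5-fold threshold. At 2-fold the 4th generation count was 3 with loess over the whole array, median centring and the authors' deposited values. At the 7th the count of 1 became 2 with loess over the whole array, no background correction, plain subtraction, a 1.5-fold threshold and the authors' deposited values. At the 11th the count of 2 became 3 with plain subtraction and no background correction, 4 in the authors' deposited values and 6 at 1.5-fold. Between the 7th and 4th generation the count of 0 became 1 with loess over the whole array, median centring, plain subtraction, a 1.5-fold threshold and the older cells' channel alone. Between the 11th and 4th the count of 1 became 2 with median centring, in the authors' deposited values and with no background correction, 3 with plain subtraction, 5 at 1.5-fold and 0 without CLB2. Between the 11th and 7th the count of 0 became 1 with plain subtraction and the authors' deposited values and 3 at 1.5-fold. A lower threshold and a removed member lower or raise a count by construction, and for the other settings the cause was not tested. Of the gene lists' medians, that of the G2 to M transcription factors at the 7th generation moved, to -0.96 in the authors' deposited table. Of the members' single values, those of CLB2, CLB6 and SIC1 moved. CLB2 at the 4th generation was 1.58 when centred on the median and 1.39 in the authors' deposited table, and its difference between the 7th and 4th was -1.81 in the older cells' channel alone. The difference of CLB6 between the 11th and 4th generation was -1.98 with plain subtraction and -1.79 in the authors' deposited table, and between the 11th and 7th -1.36 and -1.15. The older cells' channel alone and the set without CLB2 were added after seeing the data. No array could be left out within a generation, and no paired analysis was possible because each generation has 1 array. CLB6 is limited by its signal over background, with a raw Cy5 signal of 61.7 against a blank limit of 32.2. The a-specific genes also passed that limit in this alpha strain, so passing it does not by itself show transcript.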
